A study of Sus scrofa with 32 samples.

Results

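The H3K27ac libraries of porcine muscle satellite cells treated with SGC-CBP30 were compared between the start of differentiation (CBP 0h) and 60 h of differentiation (CBP 60h). They were chosen by mark, treatment and time as their titles give them, and were 4 of the 32 samples of the series, with 2 libraries in each group. Cells of both groups had received SGC-CBP30. The labels of all 4 libraries give 48 h of it in proliferation and 60 h in differentiation. For CBP 0h the second entry conflicts with the time in the title. The labels write its dose as 5 uM/ml, a unit that cannot be interpreted as it stands. The 4 H3K27ac libraries of untreated cells (WT 0h and WT 60h) served as a reference. The 8 IgG samples were not analysed here.

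Satellite cells are the stem cells of skeletal muscle. They divide as myoblasts, leave the cell cycle under the myogenic factors MYF5, MYOD1 and MYOG, fuse into myotubes and build sarcomeres. Acetylation of histone H3 at lysine 27 (H3K27ac) marks active promoters and enhancers and is written mainly by the acetyltransferases CBP (CREBBP) and p300 (EP300). SGC-CBP30 binds the bromodomains of these proteins, the modules by which they read acetylated lysines, and not their catalytic domain. CUT&Tag places sequencing adapters beside an antibody-bound histone, and the deposited measurement was a list of enriched intervals (peaks) for each library. A site is called listed where a peak covers it, and lengths are lengths of DNA under peaks. Since cells were measured in bulk, fewer cells with the mark at a site and less mark per cell cannot be told apart.

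The labels conflict in places. In the treatment field the 60h libraries, too, are described as proliferating, and the growth protocol and cell line field name C3H cells in RPMI beside the pig organism and the satellite cell type. Separate cultures are not stated for the replicates, and p values therefore measure only the spread between libraries, which may be technical. Of 8 satellite cell and myoblast markers, 2 had listed H3K27ac within 5 kb of a gene end in each CBP 0h library, and 5 and 3 in the CBP 60h libraries. MYOD1, ITGA7 and SDC4 had none in any of the 4. Of 6 markers of differentiated muscle found in the gene table, none had a listed base at CBP 0h, and 4 and 1 had at CBP 60h, with ACTA1 and TNNT1 at 0 throughout. The 5 adipogenic markers, the 5 endothelial markers and the 5 neuronal and glial markers had no base in any of the 4 libraries. Of 5 immune markers only TYROBP had, with 1.25 and 0.975 kb at CBP 60h.

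H3K27ac was listed over more of the genome at 60h. The CBP 0h libraries held 10972 and 8969 peaks and the CBP 60h libraries 17019 and 13750. Covered length was 6.30 and 4.77 Mb at CBP 0h against 11.7 and 9.26 Mb at CBP 60h, 5.53 ± 1.08 against 10.5 ± 1.74 Mb (mean ± SD, n = 2), a ratio of 1.90. In untreated cells it was 12.3 ± 0.975 Mb and 19.1 ± 1.60 Mb, a ratio of 1.55. The CBP 60h libraries overlapped in covered length with the WT 0h libraries, which had 13.0 and 11.6 Mb. The groups at CBP 0h and CBP 60h did not overlap, but an exact permutation test of 2 against 2 libraries cannot give a two-sided p below 0.33, the value found here. Numbers of reads are not given, and their part in these lengths was not tested. Peaks whose −log10 q reached 5 made up 32.0 ± 1.64% of the list at CBP 0h and 46.2 ± 5.88% at CBP 60h.

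**Figure D1:**
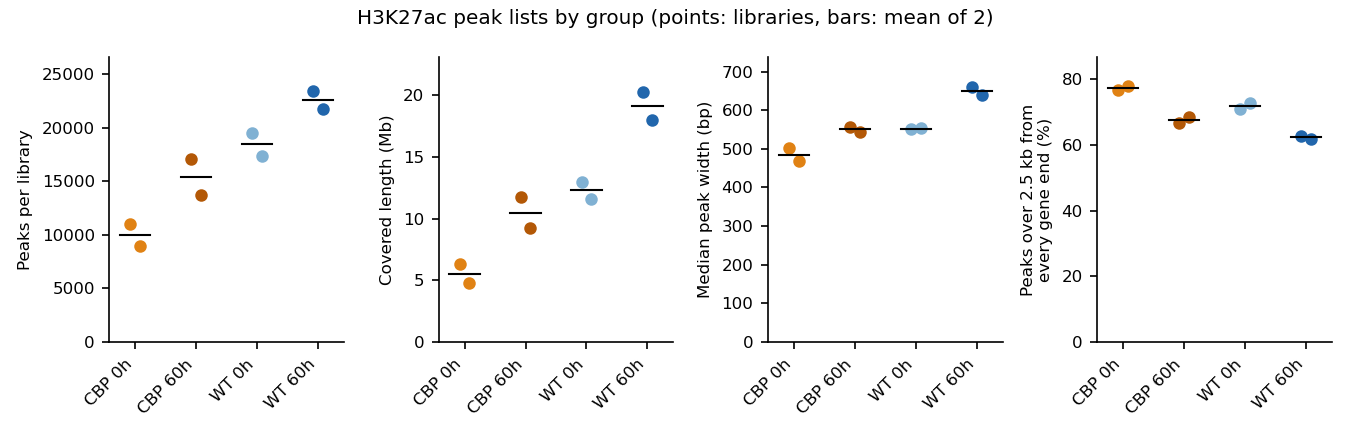
Peaks per library, covered length in Mb, median peak width in bp and the share of peaks over 2.5 kb from every gene end in percent, for the 8 H3K27ac libraries. Points are libraries and bars the mean of 2, and covered length is higher at 60h than at 0h in both treatments, with 5.53 Mb at CBP 0h and 10.5 Mb at CBP 60h.

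Peaks were also wider and nearer to genes at 60h. Median peak width was 501 and 469 bp at CBP 0h and 556 and 544 bp at CBP 60h. Peaks of at least 2 kb numbered 63 and 34 at CBP 0h and 402 and 310 at CBP 60h, and those of at least 4 kb 0 and 1 against 29 and 23. The widest peak measured 3300 and 4161 bp at CBP 0h and 9939 and 10015 bp at CBP 60h. Distal peaks, over 2.5 kb from every end of a protein-coding gene, made up 76.6 and 78.1% at CBP 0h and 66.6 and 68.4% at CBP 60h. None of these groups overlapped (exact permutation p = 0.33 for each, the smallest the design allows). The same shift of the distal share was listed in untreated cells, from 71.8 ± 1.20 to 62.3 ± 0.580%.

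Merged over the 4 treated libraries, peaks formed 25462 regions. Of these, 6456 (25.4%) were gained, that is listed in both CBP 60h libraries and in neither CBP 0h library. Another 3770 (14.8%) were lost, listed in both CBP 0h libraries and in neither CBP 60h library. Only 3026 (11.9%) were kept in all 4 libraries, and the remaining 12210 were listed in some other combination. In untreated cells 8698 of 34146 regions (25.5%) were gained, 5481 (16.1%) lost and 7487 (21.9%) kept. The counts depend on how many peaks each list holds. When every list was cut to the length of the shortest by its −log10 p rank, 3429 regions were gained and 4144 lost, so that the order of the 2 counts turned. With peaks of a −log10 q of at least 5 alone, 3538 were gained, 1271 lost and 726 kept. Without CBP 60h replicate 2, the shorter list of its group, 12134 regions were gained.

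Gained regions were wider and nearer to genes than lost regions. The median width was 742 bp for gained, 556 bp for lost and 1105 bp for kept regions. Of 6425 gained regions on placed chromosomes, 29.3% lay within 1 kb of a gene end, against 11.2% of 3758 lost regions and 22.6% of all 25347. Distal regions made up 64.3% of the gained and 83.7% of the lost regions. Those lying between genes made up 18.0 and 39.0%, while those inside a gene were alike at 46.4 and 44.7%. The median distance to a gene end was 9.51 kb for gained and 27.4 kb for lost regions. These shares describe classes defined by the 4 libraries and carry no test.

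The gained distal region with the greatest mean listed length (Sscrofa11.1 chromosome 9, 130482744 to 130487100) lay inside VASH2, a member of the vasohibin family. It had no listed base at CBP 0h and 4.36 and 3.95 kb at CBP 60h, beside 0.822 and 0.857 kb at WT 0h and 4.36 and 3.36 kb at WT 60h. A region inside CXXC5, a zinc finger regulator of WNT signalling (chromosome 2, 141506236 to 141510127), had 0 and then 3.89 and 3.09 kb under the inhibitor. In untreated cells it had 0 at 0h and 1.09 and 0.610 kb at 60h. These regions were bounded by peaks of the treated libraries and picked by their length there, so the treatments cannot be compared within them. Inside MACF1, which links actin and microtubules (chromosome 6, 95012030 to 95016083), 0 kb were listed at CBP 0h and 3.64 and 3.27 kb at CBP 60h. RGMB, a co-receptor for BMP ligands (chromosome 2, 105046224 to 105050776), had 4.55 and 3.03 kb at CBP 60h, and there H3K4me3 was already listed over 3.38 and 3.41 kb at CBP 0h.

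Near gene ends, the longest gained region lay in TRIM8, a ubiquitin ligase gene (chromosome 14, 113639543 to 113646297). It went from 0 to 5.99 and 5.98 kb, beside 3.92 and 3.73 kb at WT 60h. The region was bounded by peaks of the treated libraries and chosen for its length there, so these lengths do not compare the treatments. Within 5 kb of either end of TRIM8, CBP 60h had 5.88 and 4.78 kb and WT 60h 6.25 and 5.35 kb. Regions of 3.10 to 3.87 kb at CBP 60h were gained at MEIS1 and TBX15, which encode developmental transcription factors, at FNDC3B and at TRAPPC3. Each of these 5 had a listed base in both WT 0h libraries, of 0.350 to 1.31 kb, and in both CBP 0h libraries of H3K4me3, the promoter mark, of 0.535 to 3.63 kb.

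The 5 longest lost distal regions carried no H3K4me3 in any treated library. The first lay between genes (chromosome 8, 77122351 to 77125322, 97.1 kb from the nearest gene end, that of GATB), with 2.82 and 2.76 kb at CBP 0h and none at CBP 60h. Untreated cells had 2.76 and 2.70 kb there at 0h and still 1.11 and 0.730 kb at 60h. Regions inside AFF1 (chromosome 8, 131833233 to 131835431), which encodes a scaffold of the super elongation complex, and inside GLIS1 (chromosome 6, 158715355 to 158717710) were listed over 1.91 to 2.36 kb in each CBP 0h library. Both were at 0 in all 60h libraries, treated and untreated. A region inside NTF3, a neurotrophin gene, held 2.66 and 1.80 kb at CBP 0h and 0 at CBP 60h, with 0.329 and 0.364 kb left at WT 60h. Being lost in the treated libraries and picked by length there, these regions cannot serve to compare the treatments.

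Near gene ends, a region at NR1D1, which encodes the clock repressor REV-ERB alpha (chromosome 12, 22262462 to 22265071), went from 2.61 and 2.09 kb to 0, as in untreated cells, where it went from 2.51 and 2.54 kb to 0. H3K4me3 stayed listed there, over 1.97 and 2.04 kb at CBP 0h and 1.87 kb in each CBP 60h library. The region in JPH1, which encodes junctophilin 1 of the muscle triad (chromosome 4, 61712971 to 61715210), was listed over 2.24 and 1.67 kb at CBP 0h and not at CBP 60h. Untreated cells had 2.24 and 1.98 kb there at 0h and 2.1 and 1.97 kb at 60h. A region at ALKBH3 (chromosome 2, 18410214 to 18411888) had 1.51 and 1.54 kb at CBP 0h, none at CBP 60h and 1.52 to 1.68 kb in all 4 untreated libraries. These lost regions were bounded by peaks of the treated libraries and picked by their length at CBP 0h. The treatments therefore cannot be compared within them.

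Of the 3026 kept regions, 1536 (50.8%) were longer in both CBP 60h libraries than in both CBP 0h libraries and 554 (18.3%) shorter. The median length within them was 671 and 576 bp at CBP 0h and 833 and 768 bp at CBP 60h, with a median change of 153 bp. At least doubling was seen in 677 and at least halving in 120. The largest gain of length was at AMOTL2, a target and regulator of the Hippo pathway (chromosome 13, 75499930 to 75509408), from 0.850 and 0.259 kb to 8.92 and 8.85 kb. Inside CALD1, which encodes the actin-binding caldesmon (chromosome 18, 14446673 to 14453919), the length went from 0.977 and 0.918 kb to 6.77 and 7.07 kb. ANXA2, an annexin gene, went from 1.15 and 0.569 kb to 6.63 and 6.27 kb. The largest losses were inside MTCL1, from 3.92 and 4.16 kb to 1.65 and 0.835 kb, and ALG14, from 3.47 and 3.26 kb to 1.07 and 0.523 kb. The ALG14 region stayed between 3.13 and 3.45 kb in all 4 untreated libraries. It was picked by its change in the treated libraries, so these lengths do not compare the treatments.

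The sites were then placed beside those of untreated cells, whose libraries are other libraries. Of the 6456 regions gained under the inhibitor, 38.2% were also gained in untreated cells, against 20.1% of all regions of treated cells. A further 24.0% were listed in all 4 untreated libraries, and 14.7% (947 regions) in none. Of the 3770 lost regions, 44.3% were also lost in untreated cells, against 11.8% of all regions. Opposite changes were few: 1.70% of the gained regions were lost and 2.60% of the lost regions gained in untreated cells. Kept regions were kept in untreated cells in 81.2% of cases, against 27.2% of all regions. Lost regions within 2.5 kb of a gene end were lost in untreated cells in 25.9% and kept there in 39.2% of cases, against 4.90 and 33.4% of all regions near gene ends. Distal lost regions were lost in 47.9% and kept in 18.3%, against 14.6 and 24.7% of all distal regions. All regions include the 12210 listed in other combinations, whose median width was 419 bp. Gained, lost and kept regions had medians of 742, 556 and 1105 bp and were listed in both libraries of a group. The part of width and of such repeated listing in these shares was not tested.

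**Figure D2:**
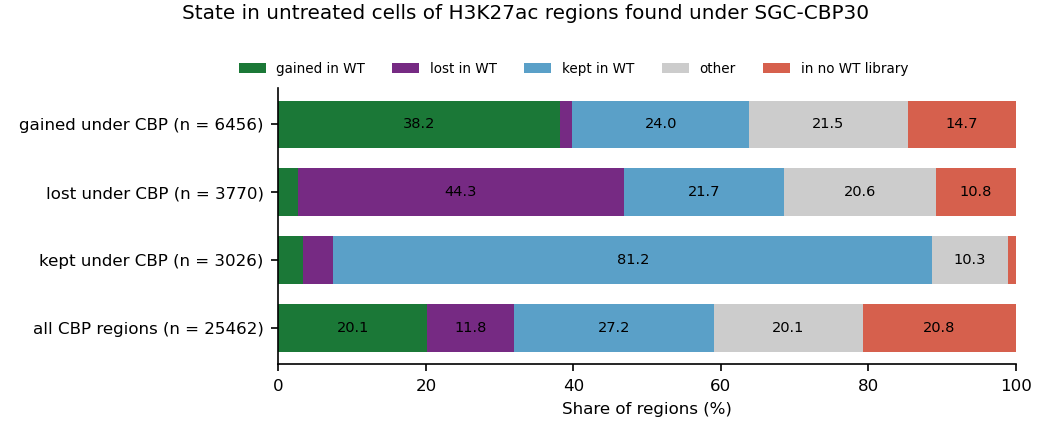
Share, in percent, of the H3K27ac regions gained, lost or kept under SGC-CBP30 (rows, with their number) that were gained, lost, kept, listed in another combination or not listed in the 4 untreated (WT) libraries. The gained row holds 38.2% gained in WT, the lost row 44.3% lost in WT and the kept row 81.2% kept in WT.

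Read from the untreated side, of the 34146 regions of untreated cells 15.2% were gained, 9.20% lost and 8.76% kept in treated cells, and 45.03% were listed in no treated library. Of the 8698 regions gained in untreated cells, 26.2% were gained in treated cells and 48.0% (4171) were listed in no treated library. Of the 5481 regions lost in untreated cells, 29.7% were lost in treated cells and 47.1% were listed in none. Of the 7487 regions kept in untreated cells, 33.0% were kept, 19.9% gained and 9.51% lost under the inhibitor. The treated lists were shorter than the untreated ones. With lists of equal length the shares of WT-gained and WT-lost regions that changed alike were 28.2 and 38.8%, and with a −log10 q of at least 5 they were 22.4 and 16.5%. Without CBP 60h replicate 2 the first was 41.2%.

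H3K4me3 at these sites was measured in separate libraries. At gained distal regions, 9.61 and 9.29% had an H3K4me3 peak in the CBP 0h libraries and 17.0 and 17.3% in the CBP 60h libraries. At lost distal regions the shares were 3.82 and 3.59% and then 3.34 and 3.69%, which overlap. All distal regions went from 7.51 and 7.33% to 11.4 and 11.9%. Near gene ends most sites already had the promoter mark: 82.3 and 82.2% of gained regions had it at CBP 0h and 89.4% in each CBP 60h library, while all regions near gene ends went from 77.9 and 77.8% to 84.2 and 84.7%. The shares at lost regions near gene ends were 63.8% in each CBP 0h library and 64.9 and 66.1% at CBP 60h. Each of these comparisons has an exact permutation p of at least 0.33. Covered length of H3K4me3 was 17.3 ± 0.0940 Mb at CBP 0h and 27.6 ± 0.0832 Mb at CBP 60h (n = 2, exact permutation p = 0.33), and its part in these shares was not tested. H3K27me3, the Polycomb mark, was listed at under 1% of the regions of each class in every treated library, although its covered length was 29.9 ± 6.75 Mb at CBP 0h and 9.89 ± 0.667 Mb at CBP 60h.

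**Figure D3:**
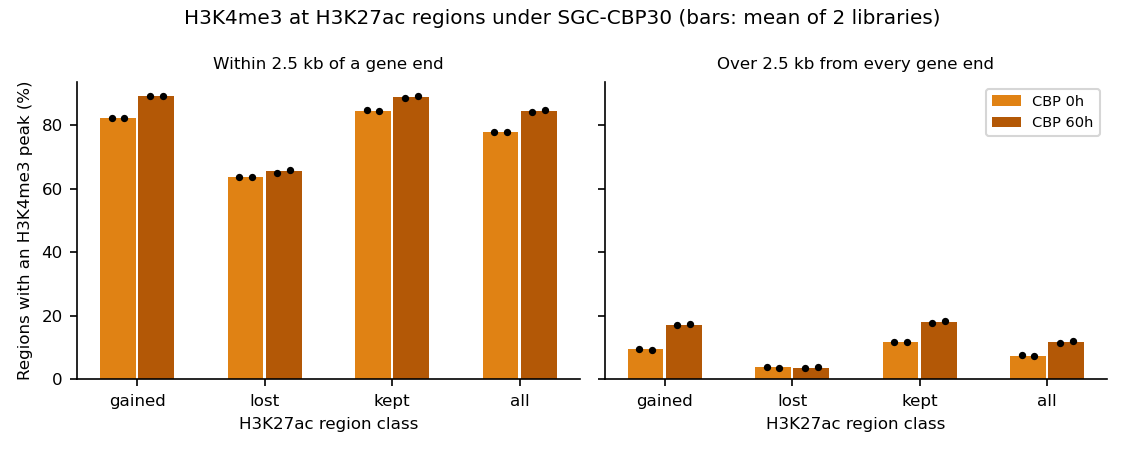
Share of H3K27ac regions, in percent, that had an H3K4me3 peak in treated cells, by region class, near gene ends (left) and distal (right). Bars are means of 2 libraries and points the libraries, and at gained distal regions the share is 9.45% at CBP 0h and 17.2% at CBP 60h.

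For genes, the length of H3K27ac listed within 5 kb of either end was compared with limma. Of 8973 genes tested, 2689 (30.0%) rose with time under the inhibitor and 497 (5.54%) fell, so that 3186 (35.5%) were called. The groups did not overlap, upward in 38.7% and downward in 9.53% of the tested genes. Among the called genes, 1961 of those that rose had no listed base in either CBP 0h library and 403 of those that fell had none in either CBP 60h library. Such groups add no spread of their own, and the p values of these genes rest largely on variance shared between genes. A log2 change against such a group depends on the 500 bp added before taking logs, so lengths are given for them. Among all called genes, 166 of the 2689 that rose and 38 of the 497 that fell passed the filter on low values only through the treated group in which they were high, and their calls are a description. The median log2 change over all tested genes was 0.36. After quantile scaling of the libraries, which sets that median to −0.01, 2039 genes rose and 1199 fell. With peaks of a −log10 q of at least 5 alone, 1793 genes were called.

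The largest increases were at MAP7D1, which encodes a microtubule-associated protein, with no base at CBP 0h and 9.69 and 7.46 kb at CBP 60h (adjusted p = 0.000202). BAHCC1, a chromatin reader gene, went from 0 to 7.03 and 6.99 kb (adjusted p = 0.000148). The window of NR2F2, which encodes the nuclear receptor COUP-TFII, went from 0.478 and 0 to 10.3 and 7.38 kb. RASSF4, TRIM8, OLFML2B, a gene for an extracellular olfactomedin protein, and CTSB, the lysosomal cathepsin B, had no base at CBP 0h and 4.61 to 6.23 kb in each CBP 60h library, as did LOC102160869 with 6.23 and 5.99 kb. All of these groups were apart, and all 10 of the largest increases, BIN1 and ACTC1 among them, also had more H3K27ac at WT 60h than at WT 0h.

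The largest decreases were at RIN2, a regulator of endocytic RAB proteins, from 4.01 and 3.52 kb to 0 and 0.474 kb (log2 change −2.61 ± 0.46 SE, adjusted p = 0.00993), which was not called without CBP 0h replicate 1 (adjusted p = 0.055). HEG1, a membrane mucin gene, went from 2.04 and 1.90 kb to 0. RASSF1, a tumour suppressor gene, went from 2.69 and 1.82 kb to 0 and 0.296 kb, and ZNF516 from 2.16 and 2.80 kb to 0 and 0.525 kb. SMAD9, a transducer of BMP signals, and the matrix protein gene EGFLAM had 1.33 to 1.95 kb in each CBP 0h library and 0 at CBP 60h. Neither was called with peaks of a −log10 q of at least 5 (adjusted p = 0.454 and 0.0501). ZNF516 was not called without CBP 0h replicate 2 (adjusted p = 0.059), and LOC100737821, from 3.05 and 2.43 kb to 0.439 and 0 kb, not with windows of 1 kb (adjusted p = 0.19). Of the 10 largest decreases, JPH1 and ADAM12 among them, 9 were also lower in both WT 60h libraries than in both WT 0h libraries. RASSF1 was not: it had 1.56 and 1.85 kb at WT 0h and 2.60 and 2.5 kb at WT 60h. At JPH1 the untreated decrease was small, from 2.79 and 2.65 kb to 2.56 and 2.37 kb.

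Myogenic factors and their partners held more H3K27ac at 60h in 11 of 23 tested genes and less in 0. Over all tested genes 30.0% rose and 5.54% fell. The list had a median log2 change of 0.71 against 0.36 over all genes. After quantile scaling 7 rose and 2 fell, with a median of −0.12, and with windows of 1 kb 7 rose and 1 fell. MYOG, which starts terminal differentiation, had no base at CBP 0h and 1.20 and 1.76 kb at CBP 60h (adjusted p = 0.000687). In untreated cells it had none at 0h and 4.30 and 4.01 kb at 60h, a larger change (adjusted p of the difference = 0.0093). The difference was not called after quantile scaling (adjusted p = 0.14) or without either WT 60h library (adjusted p = 0.058 and 0.052). TEAD1, which binds muscle promoters with YAP or VGLL partners, had no base at CBP 0h and 3.45 and 2.94 kb at CBP 60h (adjusted p = 0.000721). The call was lost with windows of 1 kb (adjusted p = 0.38).

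MYF5, a factor of muscle commitment, went from 3.05 and 1.76 kb to 4.59 and 4.93 kb (log2 change 0.89 ± 0.21 SE, adjusted p = 0.026). This call rested on the scaling, with a change of −0.16 after quantile scaling, and on the libraries: without CBP 60h replicate 1 or replicate 2 the adjusted p was 0.091 and 0.097, without WT 0h replicate 1 or replicate 2 it was 0.056, without WT 60h replicate 2 it was 0.0501, and in a fit of the treated libraries alone 0.071. Its neighbour MYF6, a factor of late differentiation, had 1.76 and 0.874 kb at CBP 0h and 1.0 and 0.882 kb at CBP 60h (adjusted p = 0.488), while untreated cells went from 3.54 and 4.25 kb to 7.51 and 6.09 kb. It was called lower after quantile scaling and with windows of 1 kb (adjusted p = 0.0103 and 0.0361), and higher with a −log10 q of at least 5 (log2 change 1.53, adjusted p = 0.0161).

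MYOD1, the factor that commits cells to muscle, and MEF2C, which binds DNA together with such factors, had no listed H3K27ac in any treated library. At WT 60h they had 0.886 and 1.05 kb and 1.73 and 1.48 kb, and they passed the filter on low values only through that group, so no test is given. H3K4me3, in contrast, went at MYOD1 from 0 to 3.42 and 3.29 kb under the inhibitor (adjusted p = 5.82e-06). At MEF2C it was listed in no treated library. EYA4, VGLL2 and NFATC1, a homeobox cofactor, a TEAD cofactor and a calcium-dependent factor, likewise had bases only at WT 60h among the 8 libraries.

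**Figure D4:**
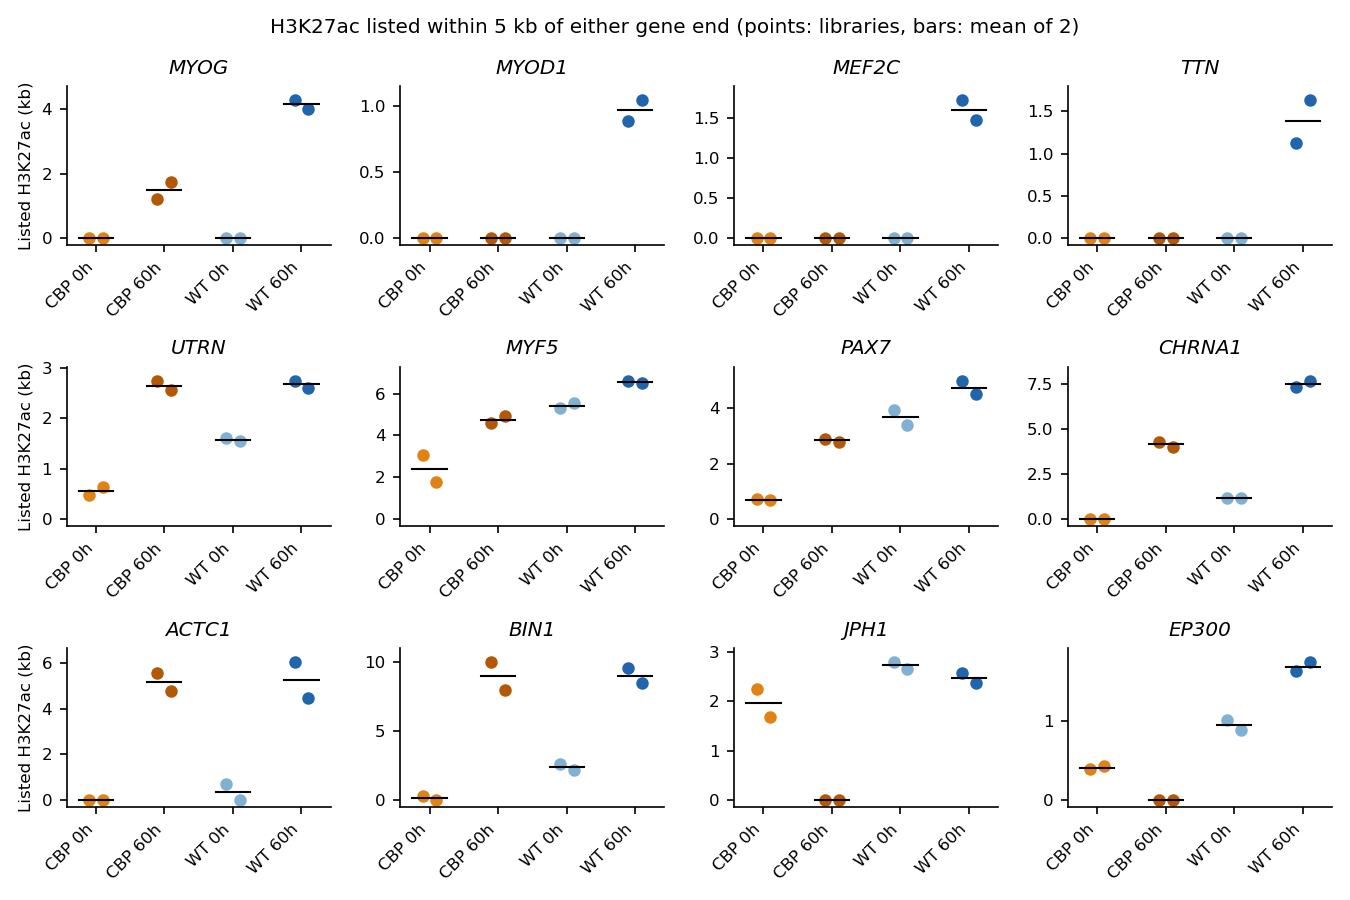
Length of H3K27ac, in kb, listed within 5 kb of either end of 12 named genes in each library (points, with bars for the mean of 2). MYOD1, MEF2C and TTN have points above 0 only at WT 60h, UTRN, CHRNA1, ACTC1 and BIN1 are higher at 60h in both treatments, and JPH1 and EP300 are at 0 only at CBP 60h.

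Genes of satellite cells and progenitors rose in 9 of 12 tested cases and fell in 0, against 30.0 and 5.54% of all genes. Their median was 1.46 (5 rose and 1 fell, median 0.77, after quantile scaling). PAX7, the factor that marks satellite cells, went from 0.707 and 0.691 kb to 2.88 and 2.80 kb (log2 change 1.48 ± 0.09 SE, adjusted p = 0.000422). With windows of 1 kb it did not pass (adjusted p = 0.589). Untreated cells had 3.96 and 3.39 kb at 0h and 5.00 and 4.51 kb at 60h, so both treated groups lay below both untreated ones. MEOX2, a homeobox gene of the somite and limb muscle, went from 0 to 3.29 and 3.27 kb (adjusted p = 0.000202, and 0.058 with lists of equal length). H3K27me3 lay there at CBP 0h, over 2.61 and 2.42 kb, and not at CBP 60h. MET, the receptor for hepatocyte growth factor, went from 0 to 2.98 and 2.74 kb, and NCAM1, an adhesion molecule of myoblasts, from 0 to 2.72 and 1.44 kb. SPRY1, a brake on FGF signals in quiescent cells, went from 0.985 and 0.682 kb to 4.75 and 4.06 kb (adjusted p = 0.0221), a call lost without any 1 of the 4 treated libraries (adjusted p 0.066 to 0.11). PAX3 had no listed H3K27ac in any of the 8 libraries.

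Of 7 fibroblast markers, none had a base in CBP 0h replicate 1 and 1 in replicate 2, and 3 had at CBP 60h, with a summed length of 0 and 0.382 kb and then 7.94 and 6.84 kb. These 3 were COL1A1, COL3A1 and PDPN, while PDGFRA, TCF21, LUM and THY1 were at 0. Their part in the results on progenitor and matrix genes was not tested.

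Myoblast fusion genes rose in 3 of 12 tested cases and fell in 2, small counts beside the 30.0 and 5.54% of all genes, and without CBP 60h replicate 2 rose in 7 and fell in 1. CAV3, the caveolin of muscle, went from 0 to 2.34 and 3.73 kb (adjusted p = 0.001). JAM3, an adhesion molecule, went from 1.38 and 1.09 kb to 4.06 and 3.73 kb (log2 change 1.34 ± 0.10 SE, adjusted p = 0.0007). CDON, a receptor that promotes myogenesis, had 0 and then 0.955 and 0.548 kb (adjusted p = 0.0479). ADAM12, a metalloprotease of fusing myoblasts, went from 2.48 and 1.79 kb to 0 and 0.295 kb (adjusted p = 0.0422). The calls of CDON and ADAM12 were each lost without any 1 of the 4 treated libraries (adjusted p 0.0726 to 0.203 and 0.0722 to 0.187). MYMK, the fusogen myomaker, had 0.563 kb in CBP 60h replicate 1 and 0 in the other 3 treated libraries. It carried 7.85 and 7.46 kb of H3K27me3 at CBP 0h and 0.323 and 0 kb at CBP 60h, and its H3K4me3 went from 0 to 2.88 and 3.27 kb (adjusted p = 3.24e-06).

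Contractile and sarcomere genes rose in 15 of 34 tested cases and fell in 1, against 30.0 and 5.54% of all genes. The 1 that fell was MYLK2, which encodes the myosin light chain kinase of skeletal muscle. The list had a median of 0.88 (11 rose and 2 fell, median 0.56, after quantile scaling). With peaks of a −log10 q of at least 5 only 3 rose, and with lists of equal length 5. ACTC1, the cardiac actin of developing muscle, had no base at CBP 0h and 5.57 and 4.78 kb at CBP 60h (adjusted p = 0.00274), close to the 6.07 and 4.49 kb of WT 60h. TPM1, a tropomyosin, went from 0 and 0.253 kb to 4.39 and 3.28 kb (adjusted p = 0.000883). LDB3 and ANKRD1, genes of proteins of the Z-disc and of the titin spring, had no base at 0h in either treatment. At CBP 60h they had 3.57 and 2.06 kb and 2.56 and 2.94 kb (adjusted p = 0.000903 and 0.000225), calls that were lost (adjusted p = 0.097 and 0.34) when all lists were cut to equal length. TTN, the spring protein titin, had no base in any treated library and 1.13 and 1.64 kb at WT 60h, the group through which alone it passed the filter, while its H3K4me3 went from 0 to 0.925 and 1.60 kb under the inhibitor. DES and CKM, desmin and the muscle creatine kinase, had 1.34 and 1.32 kb in CBP 60h replicate 1 and 0 in replicate 2. ACTA1, the skeletal actin, had no H3K27ac in any of the 8 libraries. It had 7.35 and 6.78 kb of H3K27me3 at CBP 0h and 1.70 and 0 kb at CBP 60h, and H3K4me3 over 0 and then 2.01 and 1.97 kb.

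More contractile genes had a gained distal site nearby than a lost one. Of 52 such genes in the table, 24 (46.2%) had a gained distal region within 50 kb and 5 (9.62%) a lost one, against 17.8 and 14.6% of all genes. The corresponding numbers were 15 and 9 of 27 for myogenic factors and 22 and 12 of 45 for genes of the extracellular matrix. Long genes span more sites, and no length was set equal here.

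Genes of excitation-contraction coupling and the triad turn the nerve signal into calcium release. They rose in 7 of 17 tested cases and fell in 2 (4 and 2 after quantile scaling). The shares of all tested genes were 30.0 and 5.54%. BIN1, which shapes the T-tubule membrane, had 0.269 and 0 kb at CBP 0h and 10.0 and 7.98 kb at CBP 60h (log2 change 3.93 ± 0.24 SE, adjusted p = 0.000419), with 15 gained distal regions within 50 kb. CASQ1, the calcium store protein, went from 0 to 3.31 and 2.13 kb. JPH1, which ties the T-tubule to the sarcoplasmic reticulum, went from 2.24 and 1.67 kb to 0 (adjusted p = 0.000318), while untreated cells had 2.79 and 2.65 kb at 0h and 2.56 and 2.37 kb at 60h (adjusted p of the difference = 0.000667). SLN, the SERCA inhibitor sarcolipin, went from 0.941 and 0.903 kb to 0, and from 1.01 and 0.989 kb to 0 in untreated cells. Neither decrease was called with peaks of a −log10 q of at least 5, where the change was 0 (adjusted p = 1). With that q minimum the difference between the treatments at JPH1 turned, to 0.34 (adjusted p = 0.0486). TRDN, HRC and JSRP1, which encode proteins of the calcium store, had bases at WT 60h alone. Across the list the time effect was lower in treated than in untreated cells for 8 genes and higher for 2 (5 and 3 after quantile scaling), against 22.1 and 10.8% of all genes. Of the 8, 4 passed the filter only through WT 60h.

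Acetylcholine receptor and synapse genes rose in 6 of 12 tested cases and fell in 0 (5 and 1 after quantile scaling). All tested genes rose in 30.0 and fell in 5.54% of cases. CHRNA1, the alpha subunit of the muscle receptor, had no base at CBP 0h and 4.29 and 4.02 kb at CBP 60h (adjusted p = 0.000148), with 7.35 and 7.67 kb at WT 60h. The neighbouring genes CHRND and CHRNG, the delta and fetal gamma subunits, went from 0 to 2.41 and 2.03 kb and to 2.08 and 1.85 kb (adjusted p = 0.00024 and 0.0005), and their windows overlap. The call of CHRNG was lost with a −log10 q of at least 5 (adjusted p = 0.55). UTRN, the synaptic relative of dystrophin, went from 0.488 and 0.630 kb to 2.74 and 2.56 kb (log2 change 1.57 ± 0.09 SE, adjusted p = 0.000343). ACHE, the acetylcholinesterase, had bases only at WT 60h, over 1.45 and 1.56 kb.

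Of 26 tested glycolysis and glycogen genes 4 rose and 2 fell, against 30.0 and 5.54% of all genes, with a median of 0, and after quantile scaling 4 rose and 8 fell. Without CBP 60h replicate 2, 7 rose and 1 fell. The time effect was lower in treated than in untreated cells for 10 of them, 6 of which passed the filter only through WT 60h, and higher for 1 (8 and 3 after quantile scaling). Over all tested genes this difference was lower in 22.1% and higher in 10.8%. ENO3, the muscle enolase, had 0 and 0.276 kb at CBP 60h and 5.40 and 5.54 kb at WT 60h, and PYGM, GPI and LDHA had none at CBP 60h and 0.562 to 2.0 kb in each WT 60h library. PGAM2, the muscle phosphoglycerate mutase, was an exception, with 0 at CBP 0h and 3.46 and 1.71 kb at CBP 60h.

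Of 26 tested cell cycle genes 2 rose and 2 fell, and 5 rose without CBP 60h replicate 2. Over all tested genes 30.0% rose and 5.54% fell, the shares beside which the counts of this paragraph stand. FOXM1 and AURKA, a mitotic transcription factor and kinase, went from 0.824 and 0.680 kb and from 0.330 and 0.300 kb to 0. In untreated cells, too, both were at 0 at 60h. Genes of cell cycle exit and of the p53 response rose in 11 of 25 cases and fell in 2 (6 and 2 after quantile scaling), and without CBP 0h replicate 1 or replicate 2 in 7 or 6. CDKN1B, the inhibitor p27, went from 2.37 and 1.88 kb to 6.25 and 6.31 kb. CDKN1A, the inhibitor p21, had 0.537 and 0.267 kb and then 1.51 and 0.678 kb (adjusted p = 0.123), where the groups did not overlap but the change did not pass. With windows of 1 kb it was called higher (log2 change 1.48, adjusted p = 0.00977), and without CBP 60h replicate 2 its log2 change was 1.17. CDKN1C, the inhibitor p57, had no listed H3K27ac in any of the 8 libraries. Of the immediate early and AP-1 genes 12 of 33 rose and 2 fell, shares of 36.4 and 6.06% that lie near those of all genes. This order turned after quantile scaling, to 5 and 9. MYC went from 0.735 and 0.638 kb to 3.52 and 4.07 kb (adjusted p = 0.00748, and 0.095 with windows of 1 kb). FOS had 0.309 and 0.266 kb and then 0.699 and 0 kb, and JUNB 0.561 and 0 kb and then 2.38 and 1.29 kb (adjusted p = 0.0316, and 0.064 after quantile scaling). JUNB lost its call without CBP 0h replicate 2, CBP 60h replicate 1 or any 1 of the 4 untreated libraries (adjusted p 0.0579 to 0.145). Without CBP 60h replicate 1, 6 of the immediate early genes rose and 5 fell, and without CBP 0h replicate 2 only 5 rose.

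Of 15 tested genes on a list of ID, Notch and other myogenic inhibitors, 3 rose and 0 fell. The shares of all tested genes were 30.0 and 5.54%. Those that rose were ZEB1, SNAI1 and SNAI2, which are not ID or Notch genes. After quantile scaling 3 rose and 3 fell. The count that rose was 1 without CBP 60h replicate 1 and 5 without replicate 2. ID1 had 1.58 and 1.41 kb and then 1.12 and 0 kb (adjusted p = 0.193), and ID3 had 1.36 and 1.34 kb and then 0.561 and 0.558 kb (adjusted p = 0.0924). Both were called lower after quantile scaling (adjusted p = 0.00991 and 0.00417). ID1 was also called lower without CBP 60h replicate 1 (adjusted p = 0.00173), and ID3 in a fit of the treated libraries alone (adjusted p = 0.00612) and without either WT 60h library (adjusted p = 0.0038 and 0.00374).

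Genes of TGF-beta, BMP and activin signalling rose in 10 of 24 cases and fell in 1, NOG, the BMP antagonist noggin. After quantile scaling 6 rose and 2 fell. Over all tested genes 30.0% rose and 5.54% fell, the shares beside which the counts of this paragraph stand. SMAD7, the inhibitory SMAD, went from 0 to 4.29 and 4.07 kb, and TGFBR2, the type 2 receptor, from 0.837 and 0.600 kb to 6.95 and 5.36 kb. IGF genes rose in 4 of 11 cases and fell in 0, but 1 and 0 rose without CBP 0h replicate 1 or replicate 2. WNT genes rose in 5 of 18 and fell in 1, the ligand gene WNT2, shares near those of all genes, and 8 rose without CBP 60h replicate 2 against 3 without CBP 60h replicate 1, CBP 0h replicate 2 or either WT 60h library. Genes of the extracellular matrix rose in 13 of 35 cases and fell in 1, COL8A1 (8 and 4 after quantile scaling, 7 and 3 without CBP 0h replicate 2). COL3A1, a fibrillar collagen, had 0 and 0.382 kb at CBP 0h and 4.19 and 4.71 kb at CBP 60h.

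HOX genes, which encode position along the body axis, rose in 15 of 23 tested cases and fell in 0. The shares of all tested genes were 30.0 and 5.54%. The HOX list had a median of 1.25 (11 rose and 0 fell, median 0.46, after quantile scaling). HOXC6 had no base at CBP 0h and 4.50 and 3.38 kb at CBP 60h. HOXA7 went from 0.932 and 1.22 kb to 8.54 and 7.19 kb. Of the 36 HOX genes in the table, 25 had a gained distal region within 50 kb and 0 a lost one, against 17.8 and 14.6% of all genes. HOX genes lie in tight clusters, so that their windows overlap and neighbouring genes share peaks.

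Clock genes went the other way, with 1 of 13 tested genes up and 4 down (1 and 6 after quantile scaling), against 30.0 and 5.54% of all genes. The 4 were NR1D1, PER1, CRY2 and NFIL3, genes of the repressor arm of the clock and its output. NR1D1 went from 2.61 and 2.09 kb to 0.486 and 0.449 kb and PER1 from 0.911 and 0.621 kb to 0. The gene that rose, NPAS2, encodes an activator of the clock and went from 0 to 2.87 and 2.08 kb. In untreated cells PER1 went from 3.25 and 3.57 kb to 0.696 and 0.499 kb. Without CBP 0h replicate 1, or without either WT 0h library, 2 clock genes rose and 2 fell, and without CBP 60h replicate 2, 4 rose.

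Among genes of acetyltransferases, deacetylases and bromodomain proteins 7 of 27 rose and 1 fell, shares near the 30.0 and 5.54% of all genes. With lists of equal length 0 rose and 2 fell. Without CBP 0h replicate 1 or replicate 2, 4 rose, and without CBP 60h replicate 1, 3 fell. The gene that fell was EP300, a target of the inhibitor. It had 0.393 and 0.424 kb at CBP 0h and none at CBP 60h (adjusted p = 0.00162), while untreated cells went from 1.01 and 0.880 kb to 1.63 and 1.75 kb (adjusted p of the difference = 0.000745). The decrease was not called when a −log10 q of at least 5, equal list lengths or windows of 1 kb were required (adjusted p = 1, 0.38 and 1). H3K4me3 at EP300 went from 3.51 and 3.31 kb to 4.93 and 4.99 kb. CREBBP, the other target, had no listed H3K27ac within 5 kb of its ends in any of the 8 libraries. Polycomb and H3K27 demethylase genes rose in 5 of 16 cases and fell in 0, a share of rises near that of all genes, and rose in 2 or 3 without either CBP 0h or either WT 60h library. EZH2, the H3K27 methyltransferase, had no base in any treated library and 0.321 and 0.292 kb at WT 0h alone. Cytoplasmic ribosomal protein genes rose in 26 of 74 cases (35.1%) and fell in 1, a share of rises close to that of all genes. After quantile scaling 20 rose and 8 fell, and with lists of equal length 24 of 62 rose and 6 fell. The count that fell was 4 without CBP 60h replicate 1 and 2 without replicate 2.

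Of 7 tested genes on a list of adipogenic genes, 6 rose, against 30.0% of all tested genes. The list had a median of 1.79, and 6 also rose after quantile scaling. The 6 that rose were EBF1, CEBPB, CEBPD, PLIN2, SCD and CIDEC. EBF1 had no base at CBP 0h and 3.96 and 3.68 kb at CBP 60h. The defining markers PPARG, CEBPA, FABP4, ADIPOQ and PLIN1 were at 0 in every treated library. With windows of 1 kb 3 of the list rose. Of the other cell types, 2 of 3 tested immune genes rose, CD68 and TYROBP, and 1 without either CBP 0h library. No neuronal or glial gene of 2 was called, and no endothelial gene had enough listed H3K27ac to be tested.

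**Figure D5:**
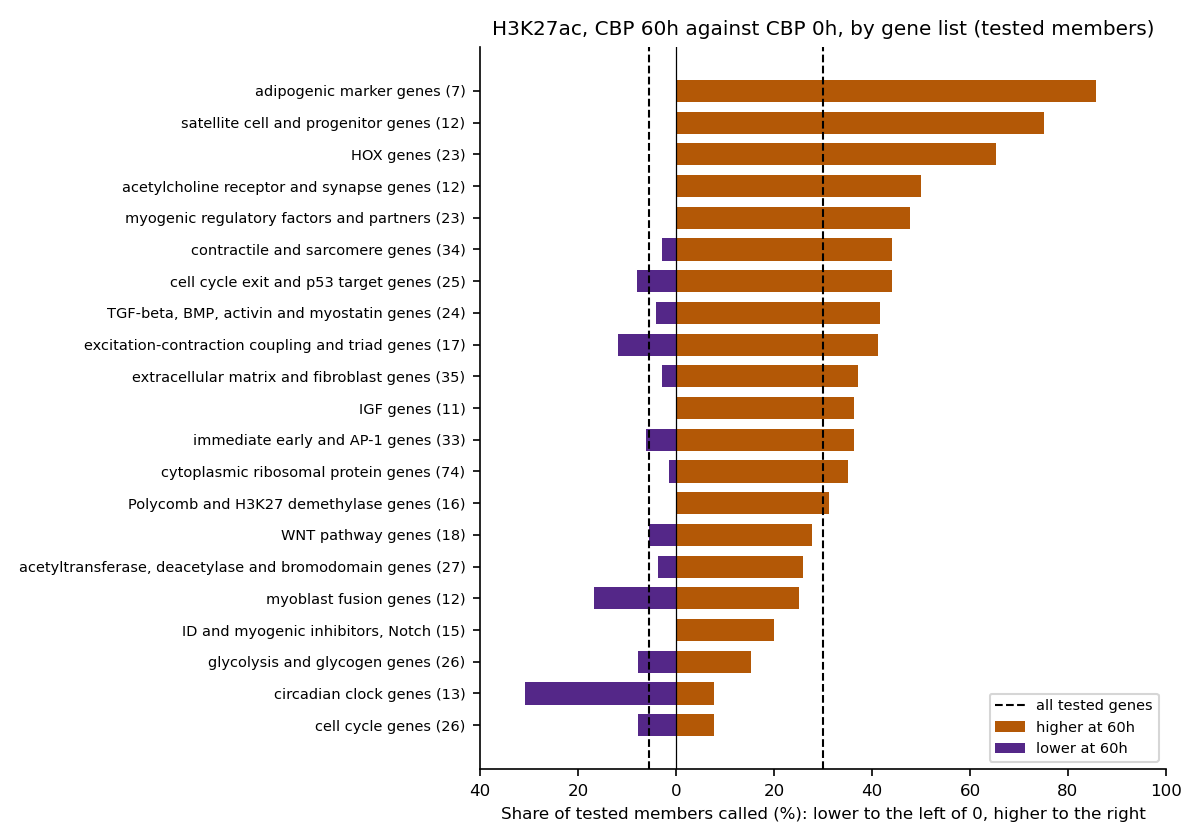
Share of tested members of each gene list, in percent, whose listed H3K27ac was called higher (right of 0) or lower (left of 0) at CBP 60h than at CBP 0h, with the number tested in brackets. Dashed lines mark all tested genes, at 30.0 and 5.54%, and clock genes, at 7.69 and 30.8%, are the list in which more members fell than rose, while cell cycle genes are even at 7.69%.

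The time effects under the inhibitor and in untreated cells were compared directly by limma. Of 8973 genes, 971 (10.8%) had a higher and 1979 (22.1%) a lower change with time in treated cells, with a median difference of −0.26 on the log2 scale. Of the 1979, 1197 passed the filter on low values only through WT 60h, and of the 971, 235 only through WT 0h, so that these had to differ and their calls are a description. After quantile scaling the order turned, to 1491 higher and 1028 lower, so the order of these counts depended on the scaling. Without WT 60h replicate 1 or replicate 2 the differences called numbered 1118 and 1048 rather than 2950. The largest lower differences were at NEK8, BGN, AIMP2 and the neighbours HSPB6 and PROSER3, which share part of their windows. Other than NEK8, these passed the filter only through WT 60h. The call of NEK8 was lost without any 1 of the 4 treated libraries or either WT 60h library (adjusted p 0.0537 to 0.095). BGN, which encodes the matrix proteoglycan biglycan, had no base in 6 libraries and 4.53 and 4.11 kb at WT 60h, and HSPB6, a small heat shock protein gene of muscle, had 3.02 and 2.46 kb at WT 60h. The 5 largest higher differences were at TNC, WFDC1, FARP1, TMEM190 and LRRTM2, which were lower at WT 60h than at WT 0h. TNC, the matrix protein tenascin C, had 0.604 and 0 kb at CBP 0h and 2.21 and 3.26 kb at CBP 60h, but 3.11 and 3.02 kb at WT 0h and 0.935 and 0.944 kb at WT 60h (adjusted p of the difference = 0.0082). Its libraries moved in opposite directions in the 2 treatments. The difference was not called with windows of 1 kb (adjusted p = 0.0633) or without WT 60h replicate 1 or replicate 2 (adjusted p = 0.0531 and 0.0536). The time effect under the inhibitor was not called without CBP 60h replicate 2 (adjusted p = 0.0526) or with windows of 1 kb (adjusted p = 0.193). FARP1 went from 0 to 1.37 and 1.01 kb under the inhibitor and from 0.647 and 0.492 kb to 0 without it. WFDC1 had bases at WT 0h alone.

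Genes without any base at 0h and with at least 200 bp in both 60h libraries numbered 2193 in treated cells, 11.2% of all 19550 genes, and 2479 (12.7%) in untreated cells. They shared 666 genes, 30.4% of the treated and 26.9% of the untreated list. In the other direction 493 and 473 genes lost all listed bases, with 118 in common (23.9 and 24.9%). Of the 2479 genes switched on in untreated cells, 1047 (42.2%) had no H3K27ac base in any treated library. Over all 19550 genes this share was 62.9%, but only 10208 of them had a listed base in any of the 8 libraries. The 2 shares therefore do not compare like with like. H3K4me3 at these 1047 genes had a median log2 change under the inhibitor of 0.44, near the 0.42 of all genes tested and the 0.49 of the 666 shared genes.

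In H3K4me3 10280 of 12908 genes (79.6%) rose and 156 (1.21%) fell, 80.8% in all, between CBP 0h and CBP 60h, with a median log2 change of 0.42, while after quantile scaling 2768 rose and 4481 fell. The direction of most H3K4me3 changes thus depended on the scaling. Of the genes that rose in H3K27ac and were tested in H3K4me3, 2265 of 2610 rose and 8 fell, with a median of 0.44. Of those that fell in H3K27ac, 282 of 410 rose and 9 fell, with a median of 0.28.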

How the data were processed

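CUT&Tag was performed for H3K27ac, H3K4me3 and H3K27me3 in cells with and without SGC-CBP30 at 0h and 60h, 2 libraries each, and each of 24 libraries was deposited as its own peak list. Per the submitters' processing notes, Trimmomatic, MACS2 2.1.0 and the build Sscrofa11.1 were used. The aligner, options, control libraries and filters are not named there. Depth per library is unknown, which leaves no counting interval for any value. The deposited files hold peak positions and the −log10 p and −log10 q that the authors' peak caller computed within each library. These do not compare between libraries and served only to select peaks. The build was checked by position: 68.2 to 74.1% of H3K4me3 peaks lay within 1 kb of a gene end, and 9.03 to 11.1% after a shift of 200 kb.

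Overlapping or touching peaks of the 4 treated H3K27ac libraries were merged into regions, which counted as listed in a library from 1 bp of overlap. Gene ends came from a RefSeq table of 19550 protein-coding genes (Sscrofa11.1) that gives no strand. Genes with at least 200 bp within 5 kb of either end in at least 2 libraries were tested with limma 3.58.1 in R 4.3.3 (lmFit, eBayes with trend and robust) on log2(listed bp + 500), all 8 libraries of a mark in 1 fit (4 residual degrees of freedom), with Benjamini-Hochberg adjusted p below 0.05. "Rose", "fell" and "called" refer to this test. Values per library were compared by two-sided exact permutation tests (Python 3.11.15, scipy 1.17.1). The fit was run on simulated data that gave every group of a gene the same spread. Groups without a listed base, which add no spread, were not modelled, so this run cannot speak for calls against them. Alternatives were a fit of the treated libraries alone, quantile scaling, a −log10 q minimum of 5, lists of equal length, other windows, pseudocounts, filters, distances, overlaps and merging, a replicate block and leaving out each library.

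Genes named are the 10 largest increases and 10 largest decreases without overlap of the groups, the 5 largest differences each way, up to 4 called members of each of 6 muscle lists and a panel of 26 genes. Other members of the lists are named after their values were seen. Of 758 genes on 24 lists, 709 were in the gene table. The members and lists were chosen with earlier results of these data known. Some named genes are not reported here. No sequences are shown.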

Additional observations from a re-analysis of the deposited data

Results flagged for a closer look

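In 2950 genes the change with time of H3K27ac differed between treated and untreated cells (limma, adjusted p below 0.05). The differences of the genes named here are in log2(listed bp + 500), treated minus untreated, and where a group has no listed base their size depends on the 500 bp added.

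Lower changes under the inhibitor were found at the myogenic and contractile genes MEF2C (−2.07), TTN (−1.90), MYOD1 (−1.55) and MYOG (−1.25), at the triad gene JPH1 (−2.17), the receptor subunit CHRND (−0.70) and EP300 (−1.46). NEK8 (−3.89), PROSER3 (−3.55), BGN (−3.27), HSPB6 (−3.23), AIMP2 (−3.0) and RASSF1 (−2.58) were lower as well. MEF2C, TTN, MYOD1, PROSER3, BGN, HSPB6 and AIMP2 passed the filter on low values only through WT 60h, so that their differences are a description. The call at NEK8 was lost without any 1 of the 4 treated libraries or either WT 60h library (adjusted p 0.0537 to 0.095), at MYOG without either WT 60h library and after quantile scaling, and at CHRND after quantile scaling (adjusted p = 0.524) and without either CBP 0h or either WT 60h library (adjusted p 0.0502 to 0.075).

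Higher changes were found at PAX7 (1.14) and MET (0.43) among muscle regulators, at BIN1 (2.21), CASQ1 (1.23), CHRNA1 (0.96), UTRN (0.96) and JAM3 (0.52) among muscle structure and fusion genes, and at EZH2 (0.69). Others were TNC (3.41), WFDC1 (2.97), FARP1 (2.84), TMEM190 (2.78), LRRTM2 (2.73), MAP7D1 (2.36), LOC102160869 (2.32), TRIM8 (2.06), RASSF4 (1.62), BAHCC1 (1.13), OLFML2B (0.56) and HEG1 (0.49). The positive value at HEG1 is a smaller decrease: it fell to 0 in both treatments, from 2.04 and 1.90 kb at CBP 0h and from 3.02 and 2.92 kb at WT 0h. EZH2 and WFDC1 passed the filter only through WT 0h. With windows of 1 kb the calls lost included those at BIN1, MAP7D1, LOC102160869, BAHCC1, RASSF4 and HEG1 (adjusted p 0.346 to 0.977). With a −log10 q of at least 5, they included those at MAP7D1, BAHCC1, TMEM190 and RASSF4 (adjusted p 0.157 to 0.98). With lists of equal length, they included those at BAHCC1, TMEM190, RASSF4, OLFML2B, HEG1 and PAX7 (adjusted p 0.067 to 0.783). Calls were lost at JAM3 in 12 alternatives, among them each library left out but CBP 0h replicate 1, at RASSF4 without any 1 of the 4 treated or either WT 60h library (adjusted p 0.0896 to 0.162), at OLFML2B without either CBP 0h or WT 60h library (adjusted p 0.0512 to 0.086), and at TNC and TMEM190 without either WT 60h library (adjusted p 0.0516 to 0.0536). MET, HEG1 and CASQ1 lost theirs when any of several single libraries was left out (adjusted p 0.0551 to 0.124). CHRNA1 and MET gained more kb in untreated cells, from a mean of 1.17 to 7.51 kb at CHRNA1 against 0 to 4.15 kb under the inhibitor, and from 0.911 to 6.55 kb at MET against 0 to 2.86 kb. Their positive sign rests on the 500 bp added, since with 2000 bp the differences were 0.04 (adjusted p = 0.705) and −0.27. The signs at PAX7, MET, CASQ1, CHRNA1, TRIM8, HEG1 and JPH1 turned under at least 1 alternative.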

How the results depend on the processing

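With a −log10 q of at least 5, 1793 genes were called for time, 3538 regions gained, 1271 lost and 726 kept, the covered ratio was 2.59, the distal difference −17.6 points, and 22.4 and 16.5% of WT-gained and WT-lost regions changed alike. With lists of equal length the width ratio was 1.32, the distal difference −14.4 points, 3429 regions were gained and 1943 kept, and the 2 shares were 28.2 and 38.8%. With 50% overlap 1276 were kept and the shares were 19.5 and 22.4%, and with 1 kb merging 27.6 and 31.2%. Leaving out 1 library gave 2272 to 3535 genes for time, 1048 to 3434 for the difference (1118 and 1048 without WT 60h replicate 1 and 2), a covered ratio of 1.67 to 2.20, 6623 to 12134 gained and 4196 to 5562 lost regions, and shares of 21.0 to 41.2% and 23.6 to 37.5%.

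Signs turned for time at FOS (−0.65 and 0.61 without CBP 60h replicate 1 and 2), MYF5 (−0.16, quantile scaling) and MYF6 (1.53, q minimum). For the difference they turned at HEG1 (−0.026, quantile scaling), SMAD9 (1.64, q minimum), JPH1 (0.34, q minimum), JUNB (−1.97, equal lists), TRIM8 (−0.64, 1 kb windows) and PAX7 (−0.52, 1 kb windows). With the q minimum and equal lists, CASQ1 gave −0.55 and −0.17, CHRNA1 −0.92 and −0.64 and MET −0.96 and −0.72. With 1 kb windows and 2000 bp added, MET gave −0.42 and −0.27. In H3K4me3, quantile scaling gave −0.34 at MYF5, −0.022 at EP300, −0.015 at ID3, −0.36 at PAX7 and −0.32 at MYC. The causes were not tested. Of 1123 repeats of the time effect over 65 named genes 61 lost and 26 gained a call.

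With the replicate number as a block, 3226 genes were called for time, 2839 for the difference and 10264 in H3K4me3. ADAM12 lost its time call (adjusted p = 0.063) and MET its difference (adjusted p = 0.054), and of the 65 named genes no other call was lost. In the lists the count of decreases moved from 2 to 1 for glycolysis and for fusion, from 1 to 2 for TGF-beta and from 0 to 1 for IGF genes, and that of increases from 1 to 2 for clock genes. Deviations of same-numbered treated libraries correlated at −0.0029 across genes. A group without a listed base has no deviation to compare, and each group holds only 2 libraries. The value therefore cannot show whether same-numbered libraries shared a culture or batch, which the labels do not state. Windows at gene starts alone were not run, since no strand was used here.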

Other observations

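Counted by gene after the values were seen, the genes with the most gained distal regions inside or within 50 kb were RUNX1, a transcription factor gene, with 31 gained and 2 lost regions, MAP4K4, a kinase that restrains myogenesis, with 28 and 0, DCLK1 with 25 and 0, TEAD1 with 25 and 1, TRIO, an exchange factor for small GTPases, with 23 and 1, and SEPT9 with 20 and 3. The most lost distal regions were found at MAML3, a Notch coactivator gene, with 12 lost and 2 gained, FGGY with 11 and 3, PDE4D, a cAMP phosphodiesterase gene, with 9 and 2, and ADAM12 with 8 and 1. DST, which encodes a cytoskeletal linker, had 8 lost and 12 gained regions, so both kinds lay at the same gene. These genes are 92.8 to 1509 kb long, and counts were not set against length.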
